A study of Mus musculus with 9 samples.

Results

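Cxcl10, Cxcl12, Cxcl16 and Cx3cl1, 4 chemokines that draw lymphocytes or act in tissue stroma, were picked by gene symbol from the 52208 genes of a count table of cultured 66cl4 cells, and all 4 were found. 66cl4 is an established line of murine triple-negative breast cancer cells. Messenger RNA was sequenced in 9 libraries, 3 biological replicates in each of 3 groups. Add-back cells carried a short hairpin RNA against Eya3 and IKK2-SE, the constitutively active NF-kB kinase of the series title. Knockdown cells carried the Eya3 hairpin and an empty vector. Scramble cells carried a control hairpin and the empty vector. All cells were kept under puromycin and selected on mCherry, so the 3 groups share both selections. The labels name 1 hairpin for both Eya3 groups, as KD2 in the sample titles but as KD3 in the table's columns. Nothing in the labels says whether the replicates were separate transductions, so the p-values measure the spread between these libraries.

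Chemokines are small secreted or membrane-held proteins that guide cells along a gradient, and each acts through its own receptors. CXCL10 is a classic product of interferon and NF-kB signalling and attracts activated T cells and natural killer cells through CXCR3. CXCL12 is made by stromal cells, signals through CXCR4 and is taken up by the scavenger receptor ACKR3. CXCL16 and CX3CL1 differ from most of the family in being made as membrane proteins on a stalk, from which proteases release them, and they act through CXCR6 and CX3CR1.

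The start-site windows of Cxcl10, Cxcl12 and Cx3cl1 are shown, and a link between their motifs and the transcript levels was not tested. They are RefSeq sequences on GRCm38.p6, 250 bases before to 50 bases after the start, at chr5:92348840-92349139 on the minus strand for Cxcl10, chr6:117168285-117168584 on the plus strand for Cxcl12 and chr8:94771930-94772229 on the plus strand for Cx3cl1. Capitals mark matches, on either strand, to the kappaB consensus of NF-kB, the core of the interferon-stimulated response element (GAAA, any 2 bases, GAAA), the TATA box (TATAAA) and the GC box (GGGCGG).
Cxcl10: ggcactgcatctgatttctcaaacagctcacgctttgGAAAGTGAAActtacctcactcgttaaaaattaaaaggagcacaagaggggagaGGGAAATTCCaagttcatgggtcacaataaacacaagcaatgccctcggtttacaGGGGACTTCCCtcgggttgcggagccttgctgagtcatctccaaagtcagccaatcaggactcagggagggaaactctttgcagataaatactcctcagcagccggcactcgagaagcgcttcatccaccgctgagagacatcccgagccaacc
Cxcl12: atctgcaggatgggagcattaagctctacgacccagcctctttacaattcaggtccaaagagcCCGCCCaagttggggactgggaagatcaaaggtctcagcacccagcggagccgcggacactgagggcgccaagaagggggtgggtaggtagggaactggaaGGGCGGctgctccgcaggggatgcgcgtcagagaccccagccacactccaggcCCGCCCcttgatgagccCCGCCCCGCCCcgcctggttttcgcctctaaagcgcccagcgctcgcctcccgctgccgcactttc
Cx3cl1: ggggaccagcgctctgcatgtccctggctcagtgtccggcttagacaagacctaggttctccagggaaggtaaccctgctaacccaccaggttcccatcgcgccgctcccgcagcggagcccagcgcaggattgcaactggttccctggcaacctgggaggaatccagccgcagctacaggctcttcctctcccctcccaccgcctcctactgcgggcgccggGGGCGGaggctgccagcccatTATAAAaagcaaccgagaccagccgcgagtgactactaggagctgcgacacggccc
The Cxcl10 window held 4 kappaB matches, which occupy 2 stretches: 1 match at -159, and 3 overlapping ones at -104 and -103, of which 1 reads on the other strand. It also held 1 interferon response core, at -213. The Cxcl12 window held 5 GC boxes, 2 of which overlap by a base, with no match to the other 3 motifs. The Cx3cl1 window held a TATA box at -6 and a GC box at -27, and its RefSeq start lies 171 bases downstream of the first annotated base of the gene in GENCODE. Over 32851 mouse promoter windows of this length, 8.46% held the kappaB consensus, 3.44% the interferon response core, 13.6% the TATA box and 35.7% the GC box. The windows of Cxcl12 and Cx3cl1 were both 64.7% G or C, against 50.3% for Cxcl10 and a median of 52.7% over all windows. A match is a run of letters and does not show that a factor binds there.

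Library totals ran from 63601403 to 81534534 counts. Eya3, the hairpin's target, averaged 26.6 ± 2.21 CPM in add-back cells, 25.0 ± 0.60 in knockdown cells and 62.7 ± 1.63 in scramble cells (SD, n = 3 each), where CPM are reads scaled to library size by TMM. Ikbkb, the gene for the kinase whose active form was added, averaged 48.6 ± 1.27, 44.3 ± 0.44 and 47.8 ± 2.56 CPM in the same order of groups, and whether reads of the added construct count towards it is not given in the sources used here. Of the line's own markers, Vim averaged 2694, 3811 and 2767 CPM and Krt8 1073, 1329 and 628 CPM in that order. Of 7 tested markers of the line, 4 were called higher and 2, Krt14 and Krt19, lower in knockdown against scramble. Krt19 passed the low-count filter only through the scramble group, and Krt5, 1 of the 4 called higher, only through the hairpin groups. Each was high there, which favoured its call. Epcam and Cdh1 had at most 8 counts in any library. Of 10 genes that track RNA quality, 1 was called in knockdown against scramble (Malat1, lower), 1 in add-back against knockdown (Neat1, lower) and 2 in add-back against scramble. Over all tested genes, 57.5%, 10.4% and 55.8% were called in these comparisons. The 10 genes summed to between 8618 and 12060 CPM in add-back, 8067 and 12110 in knockdown and 9680 and 10410 in scramble libraries. With that spread inside the hairpin groups, few calls do not show equal RNA quality.

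The 3 chemokines that could be tested each differed in all 3 comparisons, and each took its own pattern. Cxcl10 was lowest in knockdown cells and between the other groups in add-back cells, Cxcl12 was low in both Eya3 hairpin groups, and Cx3cl1 was highest in add-back cells and lowest in scramble cells. Calls were common: 57.5% of the 16766 tested genes were called in knockdown against scramble, 10.4% in add-back against knockdown and 55.8% in add-back against scramble, by edgeR's quasi-likelihood test at a Benjamini-Hochberg adjusted p under 0.05. In add-back against knockdown, 53.8% of the called genes were higher, a share that came to 65.9% when libraries were scaled by their totals alone. The libraries of the 2 groups did not overlap for these 3 chemokines in any comparison, as for 63.6%, 24.7% and 61.1% of tested genes in the same order. By direction, calls higher and lower made 27.7% and 29.9% of tested genes in knockdown against scramble, 5.61% and 4.82% in add-back against knockdown, and 27% and 28.7% in add-back against scramble. Groups that did not overlap, higher and lower, made 30.6% and 33%, 12.8% and 11.9%, and 29.6% and 31.5% of tested genes in those 3 comparisons. Cxcl16 was below the level needed for a test.

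**Figure D1:**
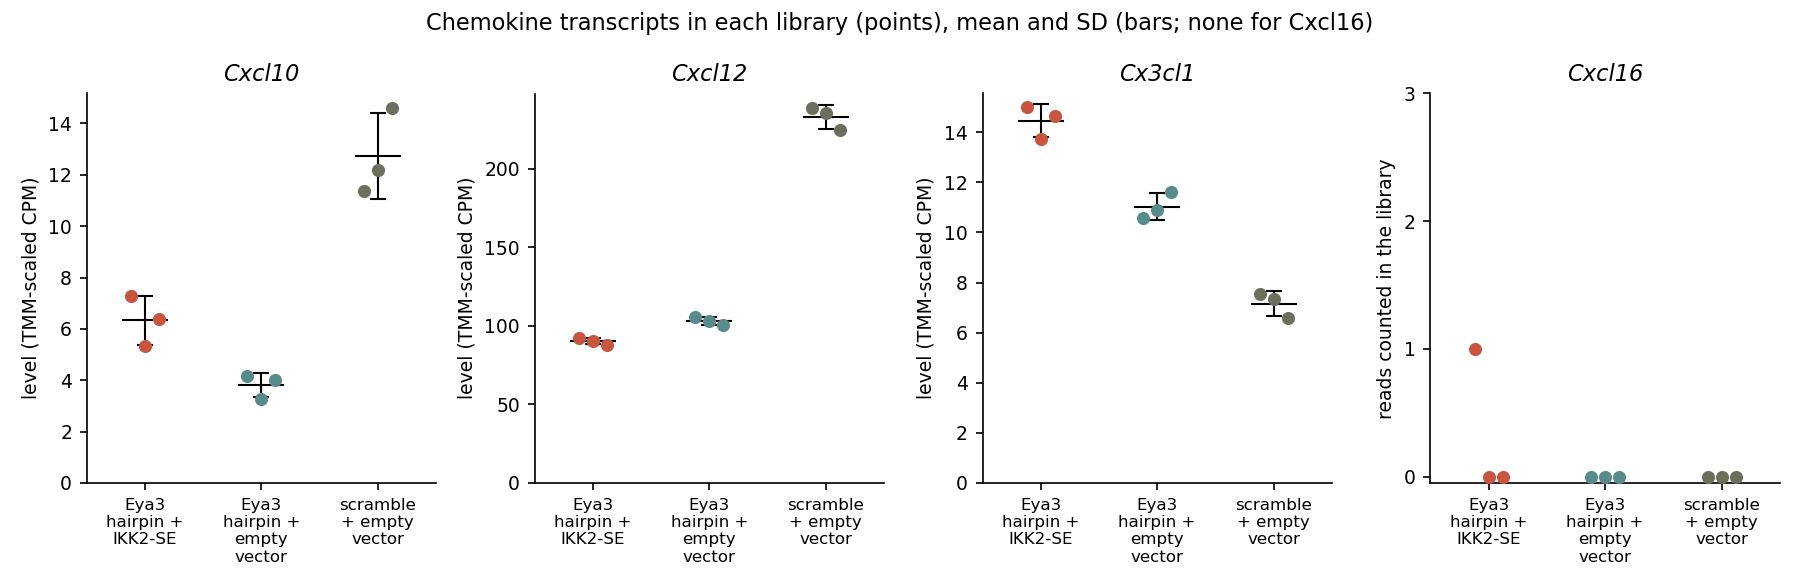
Level of each chemokine in each library, in TMM-scaled CPM for Cxcl10, Cxcl12 and Cx3cl1 and in reads counted for Cxcl16; points are libraries and black bars the mean and SD. Cxcl10 and Cxcl12 are lower in both hairpin groups than in scramble cells, Cx3cl1 is higher, and Cxcl16 has 1 read in 1 library.

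Cxcl10 (ENSMUSG00000034855.13, chromosome 5, 92346638 to 92348889 on GRCm38, minus strand) had 7.27, 5.34 and 6.39 CPM in add-back cells, 4.16, 3.28 and 4.01 CPM in knockdown cells, and 11.4, 12.2 and 14.6 CPM in scramble cells. The counts behind these levels ran from 378 to 551 in add-back, from 257 to 333 in knockdown and from 736 to 1099 in scramble libraries. Every knockdown library lay below every add-back library, and every add-back library below every scramble library. In knockdown against scramble, Cxcl10 fell by 1.74 ± 0.13 on the log2 scale (adjusted p = 5.53e-09, edgeR), to 30% of the scramble level. With IKK2-SE it was higher by 0.73 ± 0.13 than in knockdown cells (95% interval 0.45 to 1.01, adjusted p = 0.00138, edgeR), and it stayed lower than in scramble cells by a log2 change of -1.01 ± 0.12 (adjusted p = 2.47e-06, edgeR). The add-back level was 49.8% of the scramble level. Art3 overlaps Cxcl10 on the other strand but averaged 0.0434 CPM.

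A pair of chemokine genes lies beside Cxcl10, both of which encode ligands of the same receptor, CXCR3. Cxcl11 had 42, 31 and 29 counts in add-back libraries, 12, 23 and 20 in knockdown libraries and 80, 73 and 85 in scramble libraries. It fell by 2.21 ± 0.28 on the log2 scale in knockdown against scramble (adjusted p = 3.86e-06, edgeR). In add-back against knockdown it was higher by 0.99 ± 0.30 (adjusted p = 0.0469, edgeR), a call that was lost in 11 of 16 alternative analyses, where the adjusted p reached 0.179. Cxcl9 had at most 5 counts in any library and was not tested. The 40 nearest tested genes around Cxcl10 had a median log2 change of 0.44 in knockdown against scramble, with 21 called higher and 5 lower. Over all tested genes the median was -0.00146, and 27.7% and 29.9% were called higher and lower. Cxcl10 and Cxcl11 therefore moved in the opposite direction to the median of their stretch of chromosome 5.

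Cxcl12 (ENSMUSG00000061353.11, chromosome 6, 117168535 to 117181367, plus strand) was the most abundant of the 4. It had 92.4, 90.7 and 88.1 CPM in add-back cells, 106, 103 and 101 CPM in knockdown cells, and 239, 236 and 225 CPM in scramble cells. The 3 add-back libraries all lay below the 3 knockdown libraries, and both hairpin groups lay below the scramble libraries. Against scramble, the level was 38.8% in add-back cells and 44.3% in knockdown cells, with log2 changes of -1.37 ± 0.04 (adjusted p = 4.83e-14, edgeR) and -1.18 ± 0.04 (adjusted p = 2.37e-13, edgeR). Between the hairpin groups the difference was small: Cxcl12 was lower in add-back than in knockdown cells by a log2 change of -0.19 ± 0.04 (95% interval -0.27 to -0.11, adjusted p = 0.00319, edgeR). IKK2-SE thus went with a higher level of Cxcl10 and a slightly lower level of Cxcl12. None of the 6 nearest annotated genes on either side of Cxcl12 belonged to a chemokine or receptor family. The 40 nearest tested genes had a median log2 change of -0.09 in knockdown against scramble, with 6 called higher and 15 lower. Over all tested genes, 27.7% and 29.9% were called higher and lower.

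Cx3cl1 (ENSMUSG00000031778.13, chromosome 8, 94772009 to 94782427, plus strand), the membrane-held chemokine also called fractalkine, had 14.99, 13.7 and 14.7 CPM in add-back cells, 10.6, 10.9 and 11.6 CPM in knockdown cells, and 7.55, 7.35 and 6.58 CPM in scramble cells. It rose by 0.62 ± 0.08 on the log2 scale in knockdown against scramble (adjusted p = 2.84e-06, edgeR). In add-back cells it was higher again, by 0.39 ± 0.07 over knockdown cells (95% interval 0.24 to 0.55, adjusted p = 0.00196, edgeR) and by 1.02 ± 0.08 over scramble cells (adjusted p = 8.42e-09, edgeR). The levels in add-back and knockdown cells came to 202% and 154% of the scramble level. Of the 3 tested chemokines it was the one in which the knockdown and the add-back groups both stood above scramble.

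Ccl17 and Ccl22 lie on either side of Cx3cl1 and encode ligands of CCR4, a receptor of helper and regulatory T cells. Ccl17 had 18, 17 and 13 counts in add-back libraries, 0, 1 and 0 in knockdown libraries, and 1, 1 and 0 in scramble libraries. With 48 reads over the add-back group and 1 read over the knockdown group, the ratio of the levels was 51.8, with a 95% counting interval from 8.87 to 2090. The fit called Ccl17 in add-back against knockdown (adjusted p = 0.000706, edgeR) and in add-back against scramble (adjusted p = 0.000175, edgeR). It passed the low-count filter only through the add-back group, where it was high, which favoured these calls. Ccl22 had 1, 0 and 2 counts in add-back libraries and 0 in the other 6. The 40 nearest tested genes around Cx3cl1 had a median log2 change of -0.00338 in knockdown against scramble, with 10 called higher and 11 lower. Those calls stand beside 27.7% higher and 29.9% lower over all tested genes.

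Cxcl16 (ENSMUSG00000018920.11, chromosome 11, 70453983 to 70459984, minus strand), the ligand of CXCR6 on T cells, had 1 read in the first add-back library and 0 in the other 8. It overlaps Zmynd15 on the other strand. Zero reads over 3 knockdown or 3 scramble libraries allow a level of up to 0.0128 and 0.0138 CPM, a limit that covers counting error alone. No difference in Cxcl16 was detectable at this depth. Its chromosome neighbourhood was transcribed: Pelp1 averaged 91.3, 93.9 and 91.3 CPM in add-back, knockdown and scramble cells, and Psmb6 averaged 166, 165 and 160 CPM.

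**Figure D2:**
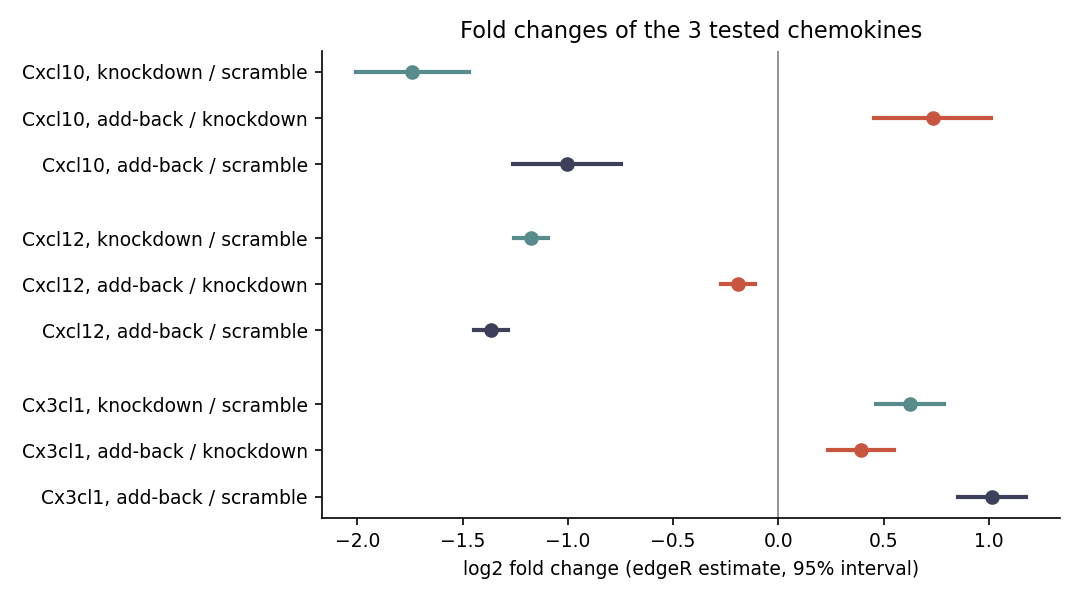
Log2 fold change of Cxcl10, Cxcl12 and Cx3cl1 in the 3 comparisons, with 95% intervals from the edgeR fit; the line marks no change. Cxcl10 lies left of the line against scramble and right of it against knockdown, and Cxcl12 and Cx3cl1 keep to opposite sides in every comparison.

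Levels of different genes were set side by side per kilobase of the longest coding transcript in the GENCODE annotation. Cxcl12 led with 16.1 ± 0.38, 18.3 ± 0.43 and 41.4 ± 1.31 CPM per kb in add-back, knockdown and scramble cells. Cxcl10 averaged 4.68 ± 0.71, 2.82 ± 0.35 and 9.40 ± 1.24 CPM per kb, and Cx3cl1 averaged 4.36 ± 0.20, 3.33 ± 0.16 and 2.16 ± 0.16 CPM per kb in the same order. In scramble cells Cxcl10 stood above Cx3cl1 in every library, in knockdown cells Cx3cl1 stood above Cxcl10 in every library, and in add-back cells their ranges overlapped. When lengths covered all exons of each gene, Cx3cl1 stood above Cxcl10 in every add-back library as well. Summed over the 4 genes, the per-length level was 25.1 ± 1.10 in add-back cells, 24.5 ± 0.51 in knockdown cells and 53.0 ± 0.24 in scramble cells. Cxcl12 made up 64.04%, 74.9% and 78.2% of that sum in add-back, knockdown and scramble cells, and Cx3cl1 made up 17.4%, 13.6% and 4.08%. Among the 16251 tested genes with a length, Cxcl12 was at percentile 72.8, 75.4 and 89.2, and Cx3cl1 was at percentile 47.9, 44.4 and 38.3, in the same order.

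**Figure D3:**
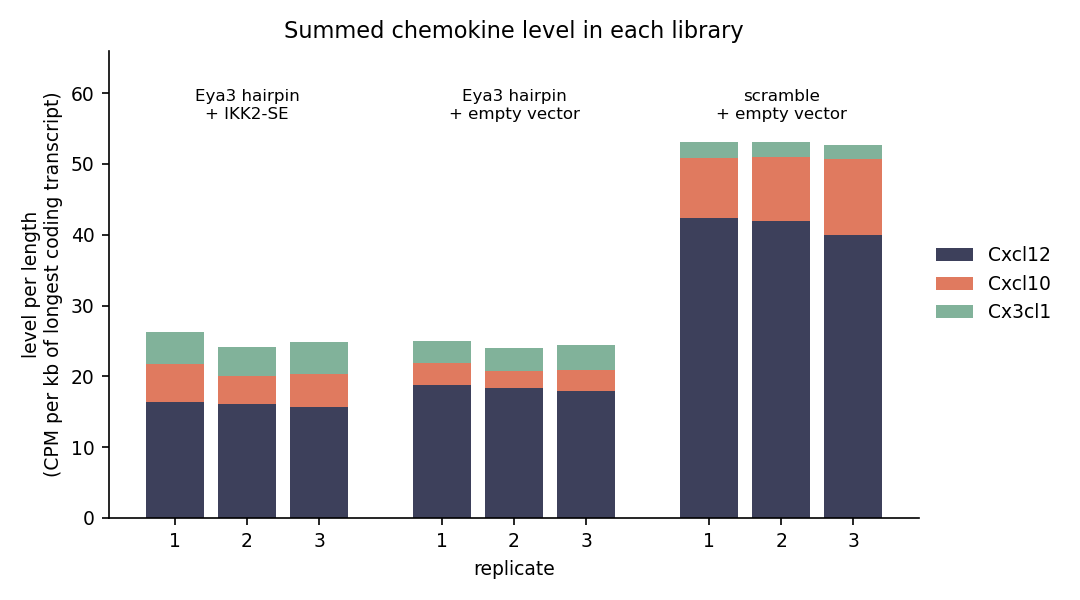
Level per kilobase of the longest coding transcript, in CPM per kb, stacked for Cxcl12, Cxcl10 and Cx3cl1 in each of the 9 libraries. The bars of add-back and knockdown cells reach similar heights of 25.1 and 24.5 on average, against 53.0 in scramble cells, and the Cx3cl1 part is widest in add-back cells.

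Over the 9 libraries, the tested chemokines had different nearest neighbours in pattern. Likeness was the root mean square difference of log2 CPM centred on each gene's mean, over all 9 libraries. Closest to Cxcl10 were Mgst1, a glutathione S-transferase of the endoplasmic reticulum (0.137), Hydin, a gene of motile cilia (0.142), and Rsad2, an interferon-induced antiviral enzyme (0.16). Rsad2 averaged 14.4 ± 1.70 CPM in add-back, 11.1 ± 1.28 in knockdown and 30.6 ± 4 in scramble cells. Closest to Cxcl12 were the small heat shock protein gene Hspb8 (0.0439), the sphingomyelin synthase gene Sgms2 (0.0465) and the butyrophilin gene Btn1a1 (0.0533). Closest to Cx3cl1 were Jade2 (0.0562), Galk2 (0.06) and Smad3 (0.0738), the last a signal carrier of TGF-beta receptors. The chemokines differed from each other by 0.413 for Cxcl10 and Cxcl12, 1.05 for Cxcl10 and Cx3cl1 and 1.01 for Cxcl12 and Cx3cl1. These distances describe the pattern and carry no test.

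Of 16 other chemokines that draw lymphocytes or dendritic cells, 4 were tested and 4 had no read in any library. Knockdown against scramble called 0 of the 4 higher and 2 lower, add-back against knockdown called 3 higher, and add-back against scramble called 2 higher and 1 lower. Of all tested genes, 27.7% and 29.9% were called higher and lower in the first comparison. The shares were 5.61% and 4.82% in the second and 27% and 28.7% in the third. The 3 called higher in add-back against knockdown were Ccl5, Ccl17 and Cxcl11. Ccl17 passed the low-count filter only through the add-back group, and the Cxcl11 call was kept in 5 of 16 alternative analyses. Ccl5, which draws T cells, averaged 20.1 ± 2.61 CPM in add-back cells, 2.87 ± 0.60 in knockdown cells and 11.3 ± 0.83 in scramble cells. Its log2 change was -1.98 ± 0.13 in knockdown against scramble (adjusted p = 2.87e-09, edgeR) and 2.81 ± 0.13 in add-back against knockdown (adjusted p = 7.13e-10, edgeR). Ccl5 was thus above the scramble level in add-back cells, by 0.82 ± 0.11 (adjusted p = 1.26e-05, edgeR), where Cxcl10 was below it. Ccl25, a thymic and gut chemokine, was not called in any comparison.

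Most receptors were at or near 0. Of a list of 10 receptors and scavengers, which also holds Ackr2, Ackr4 and Ccrl2 that mainly bind other ligands, 2 were tested, of which 2 were called lower in knockdown against scramble, 1 higher in add-back against knockdown and 2 lower in add-back against scramble. Among all tested genes, 29.9% were called lower, 5.61% higher and 28.7% lower in these comparisons. Cxcr4, Cxcr6 and Ackr1 had no read in any library, which allows at most 0.0139 CPM over any group. Cx3cr1 had at most 6 reads in a library and was not tested. Ackr3, which takes up CXCL12 and CXCL11, had 10.8 ± 1.09 CPM in add-back, 7.97 ± 0.24 in knockdown and 20.9 ± 1.72 in scramble cells. Ackr3 fell by 1.39 ± 0.08 in knockdown against scramble (adjusted p = 4.38e-10, edgeR) and was higher by 0.44 ± 0.09 in add-back against knockdown (adjusted p = 0.0026, edgeR). The other tested one, Ccrl2, which binds chemerin, averaged 0.118 ± 0.06 CPM in add-back, 0.0561 ± 0.02 in knockdown and 0.362 ± 0.10 in scramble cells and fell by 2.67 ± 0.51 in knockdown against scramble (adjusted p = 0.000275, edgeR). Ccrl2 passed the low-count filter through the scramble group, where it was high, which favoured a call. Ackr3 had its lowest mean in knockdown cells, as Cxcl10 did, while its ligand Cxcl12 was slightly lower in add-back cells.

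The proteases that release CX3CL1 and CXCL16 from the membrane are led by ADAM10 and ADAM17. Adam10 averaged 118 ± 4.66, 116 ± 6.41 and 131 ± 3.73 CPM in add-back, knockdown and scramble cells, and fell by 0.18 ± 0.04 in knockdown against scramble (adjusted p = 0.00258, edgeR). Adam17 averaged 165 ± 2.32 CPM in add-back cells, above 148 ± 4.44 in knockdown and 148 ± 2.26 in scramble cells, with a rise of 0.16 ± 0.04 in add-back against knockdown (adjusted p = 0.00837, edgeR). Of 15 tested proteases and their regulators, 5 were called higher and 6 lower in knockdown against scramble, 3 higher and 3 lower in add-back against knockdown, and 6 higher and 6 lower in add-back against scramble. Their median log2 change was 0.05 in the first of these and -0.02 in the second, against -0.00146 and 0.000583 over all tested genes. Calls higher and lower made 27.7% and 29.9%, 5.61% and 4.82%, and 27% and 28.7% of all tested genes in that order. Tspan5, a tetraspanin partner of ADAM10, rose by 1.04 ± 0.04 in knockdown against scramble (adjusted p = 3.29e-12, edgeR). Mmp9, a gelatinase, fell by 3.44 ± 0.11 in that comparison (adjusted p = 3.59e-13, edgeR) and was higher by 1.19 ± 0.13 in add-back against knockdown (adjusted p = 9.67e-06, edgeR). Timp3, an inhibitor of ADAM17, had 0 counts in scramble libraries and was at least 23.7-fold higher in knockdown cells, where the 0 was set to 3 counts summed over the 3 libraries.

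Heparan sulfate holds CXCL12 and CXCL10 at the cell surface. Of 18 tested genes for its synthesis or its core proteins, 8 were called higher and 6 lower in knockdown against scramble, 4 higher and 1 lower in add-back against knockdown, and 8 higher and 7 lower in add-back against scramble. Calls higher and lower made 27.7% and 29.9%, 5.61% and 4.82%, and 27% and 28.7% of all tested genes in the same order. The median log2 change of the 18 was 0.20 in knockdown against scramble and -0.01 in add-back against knockdown. Hs6st1, a sulfotransferase that adds a 6-O group, rose by 0.99 ± 0.04 in knockdown against scramble (adjusted p = 5.78e-12, edgeR). The glypican gene Gpc4 fell by 2.52 ± 0.09 (adjusted p = 1.09e-12, edgeR), while Gpc1 rose by 0.58 ± 0.04 (adjusted p = 1.07e-09, edgeR). Hs3st1, a 3-O sulfotransferase, had 3, 0 and 0 counts in add-back libraries, 0 in knockdown libraries, and 105, 113 and 110 in scramble libraries. It was at least 118-fold lower in knockdown than in scramble cells, again with the 0 set to 3 counts. Hs3st1 and Timp3 each passed the low-count filter only through groups where they were high.

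Genes that pass interferon signals on to Cxcl10 were compared as receptors, kinases and transcription factors. Of 15 tested, 1 was called higher and 5 lower in knockdown against scramble, where 27.7% and 29.9% of all tested genes were. In add-back against knockdown, 10 were called higher and 0 lower, where 5.61% and 4.82% of all tested genes were. In add-back against scramble, 6 were called higher and 4 lower, where 27% and 28.7% of all tested genes were. The median log2 change was -0.11 in knockdown against scramble and 0.245 in add-back against knockdown, against 0.000583 over all tested genes in add-back against knockdown. Ifngr2, a chain of the interferon-gamma receptor, fell by 0.91 ± 0.05 in knockdown against scramble (adjusted p = 6.49e-11, edgeR) and was higher by 0.29 ± 0.05 in add-back against knockdown (adjusted p = 0.000597, edgeR). Irf1, a transcription factor that acts on Cxcl10, fell by 0.63 ± 0.04 (adjusted p = 1.71e-09, edgeR) and was higher by 0.24 ± 0.04 (adjusted p = 0.00117, edgeR) in the same 2 comparisons. Irf3 fell by 0.49 ± 0.06 in knockdown against scramble (adjusted p = 1.14e-06, edgeR) and was not called in add-back against knockdown (adjusted p = 0.674, edgeR). Irf9 was higher in both, by 0.15 ± 0.06 (adjusted p = 0.0369, edgeR) and 0.31 ± 0.06 (adjusted p = 0.00192, edgeR). Ifnar2, Ifngr1 and Jak2 were higher in add-back than in knockdown cells by 0.47 ± 0.05, 0.52 ± 0.05 and 0.47 ± 0.05. Irf7, which amplifies type I interferon signals, averaged 53.5 ± 8.31 CPM in add-back, 30.2 ± 1.53 in knockdown and 34.4 ± 3.83 in scramble cells, a rise of 0.83 ± 0.10 over knockdown (adjusted p = 0.000292, edgeR). The add-back call of Stat2, at 0.20 ± 0.06, was lost in 7 of 17 alternative analyses. Ifnb1 and Ifng had at most 3 reads in any library.

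**Figure D4:**
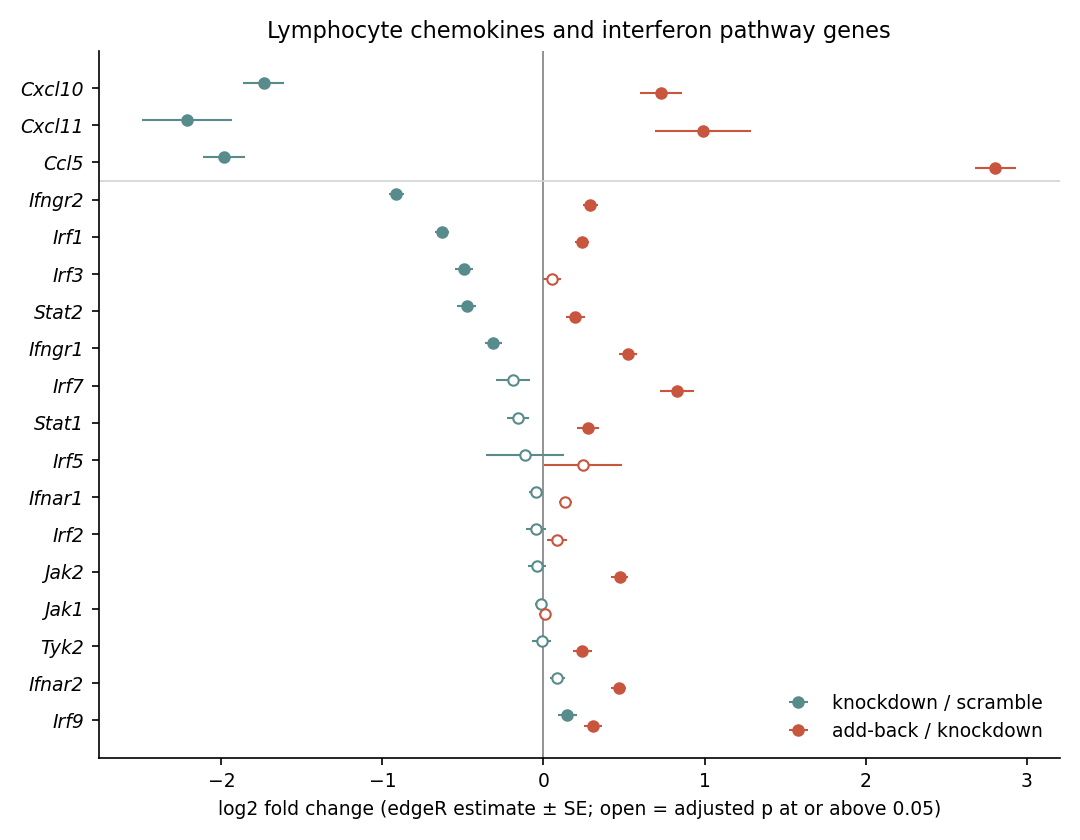
Log2 fold change with its SE for Cxcl10, Cxcl11 and Ccl5 (above the line) and the 15 tested interferon receptor, kinase and factor genes, in knockdown against scramble and in add-back against knockdown; filled points passed the adjusted p of 0.05. In add-back against knockdown 10 of the 15 are filled on the right of 0 and 0 on the left.

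Of 8 tested genes that act on Cxcl12 in other tissues, 3 were called higher and 3 lower in knockdown against scramble, 3 higher and 1 lower in add-back against knockdown, and 2 higher and 3 lower in add-back against scramble. Their median log2 change in knockdown against scramble was -0.01. Calls higher and lower made 27.7% and 29.9%, 5.61% and 4.82%, and 27% and 28.7% of all tested genes in the same order of comparisons. Foxc1, a factor of mouse bone marrow stromal cells that make CXCL12, averaged 70.2 ± 2.67 CPM in add-back, 58.6 ± 4.91 in knockdown and 19.9 ± 1.79 in scramble cells. It rose by 1.56 ± 0.07 in knockdown against scramble (adjusted p = 1.26e-11, edgeR), where Cxcl12 fell. Its call in add-back against knockdown, at 0.26 ± 0.06, was lost in 2 of 17 alternative analyses. Yy1 and Nr1d1 were the others called higher in knockdown against scramble, and Ebf1, Arntl and Cebpb were called lower. The Cebpb call was kept in 11 of 17 alternative analyses. Ebf1 changed by -0.54 ± 0.13 in knockdown against scramble (adjusted p = 0.00234, edgeR). In add-back against scramble it changed by -0.66 ± 0.14 (adjusted p = 0.000557, edgeR). Hif1a, a driver of Cxcl12 under low oxygen, was not called in knockdown against scramble (adjusted p = 0.0618, edgeR) and was lower in add-back against scramble by a log2 change of -0.13 ± 0.05 (adjusted p = 0.0365, edgeR).

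Markers of other cells were checked because lymphocytes, macrophages and stromal cells also make or answer these chemokines. In bulk RNA, fewer cells of a type and less RNA per cell cannot be told apart. The 8 lymphocyte markers summed to between 0.629 and 1.06 CPM in add-back, 0.548 and 0.705 in knockdown and 0.557 and 0.794 in scramble libraries. The 8 macrophage markers summed to between 38.7 and 41.6, 27.3 and 31.1, and 51.8 and 55.2 CPM in add-back, knockdown and scramble libraries, of which Cd68, Cd14 and Lyz2 made the larger part, and Adgre1 had at most 2 reads in a library. That order of the sums is the order of Cxcl10, and Cd14 and Mrc1 followed it. Lyz2 was highest in add-back cells (20.1, 16.5 and 17.1 CPM in the same order). Cd68 was lowest in add-back cells (3.43, 4.20 and 14.5 CPM). The part of these markers in the level of Cxcl10 was not tested. The 8 endothelial markers summed to between 1.70 and 2.02 CPM in add-back, 0.651 and 1.15 in knockdown and 5.13 and 6.02 in scramble libraries, with Cldn5 at 0 in all 9. These sums too followed the order of Cxcl10, and Cdh5 made most of the sum in scramble cells. Cdh5 averaged 0.634, 0.226 and 4.36 CPM in the same order. Tie1 averaged 0.508, 0.0775 and 0.512 CPM and was not called in add-back against scramble (adjusted p = 0.993, edgeR). Pecam1 was not called in any comparison, though its means followed the order of Cxcl10. Vwf (0.285, 0.328 and 0.280 CPM) and Emcn (0.226, 0.162 and 0 CPM) did not follow that order. The part of these markers in the level of Cxcl10 was not tested. The 10 fibroblast markers summed to between 68.9 and 71.5, 64.1 and 69.2, and 51.9 and 54.4 CPM in the same order, with Thy1 at 0 in all 9. The mean of the fibroblast sums was highest in add-back and lowest in scramble cells, the order of Cx3cl1 and not that of Cxcl12. The add-back and knockdown ranges overlapped. Pdgfrb, Dcn, Acta2 and Fap had means in the order of the sums. Pdgfra, the largest marker, was highest in scramble cells (42.68, 39.79 and 47.94 CPM in add-back, knockdown and scramble cells). Col1a1 had the order of Cxcl12 (1.518, 2.595 and 3.962 CPM). Col3a1 was highest in knockdown cells (11.99, 13.43 and 0 CPM). The part of these markers in the results was not tested. In knockdown against scramble, calls higher and lower numbered 0 and 0 of 1 tested lymphocyte marker, 0 and 3 of 5 macrophage markers, 1 and 2 of 5 endothelial markers and 4 and 2 of 7 fibroblast markers. In add-back against knockdown they numbered 0 and 0, 3 and 0, 2 and 0, and 3 and 2. Of all tested genes, 27.7% and 29.9% were called higher and lower in the first comparison and 5.61% and 4.82% in the second. Emcn, Tie1, Col1a2, Col3a1, Dcn and Acta2 passed the low-count filter only through groups where they were high, which favoured calls.

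**Figure D5:**
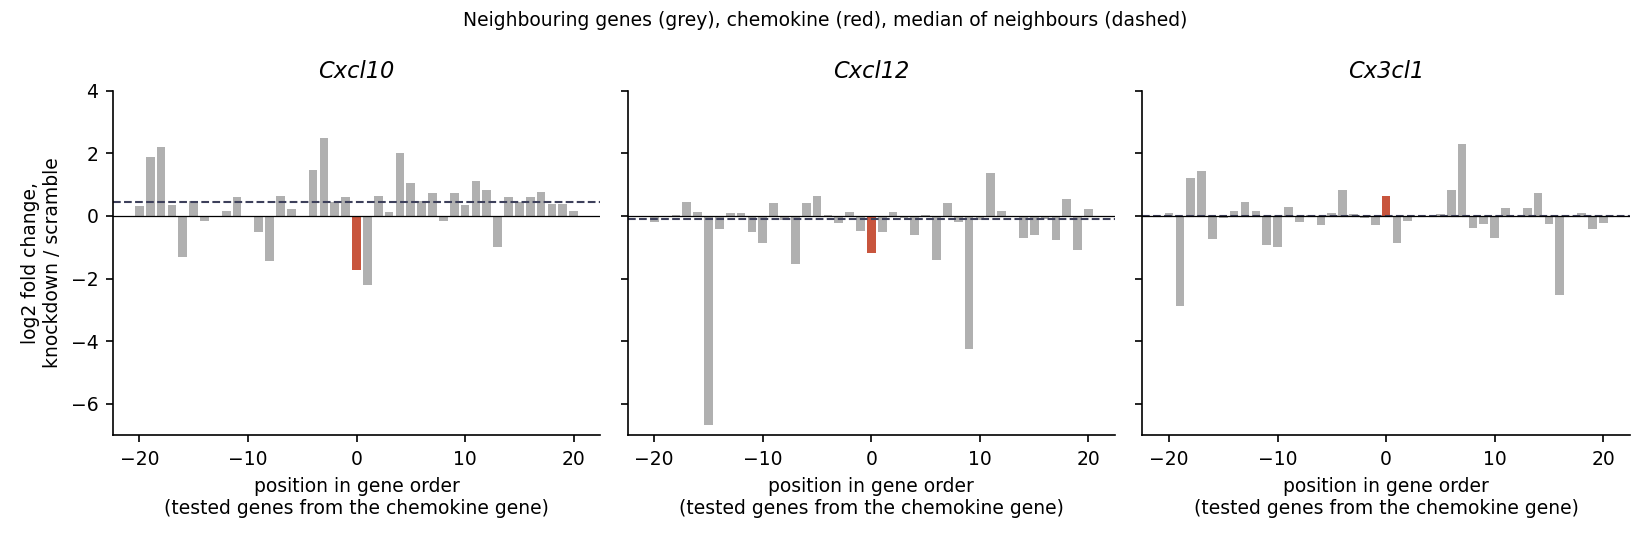
Fitted log2 fold change in knockdown against scramble of the 20 tested genes on each side of Cxcl10, Cxcl12 and Cx3cl1 (grey), of the chemokine itself (red) and the median of the 40 neighbours (dashed), by position in gene order. The Cxcl10 stretch has a median of 0.44 and Cxcl11 is the bar next to Cxcl10, while the medians around Cxcl12 and Cx3cl1 lie near 0.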

How the data were processed

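The members and gene lists were chosen with earlier results of these data known. The deposited table holds raw counts per gene and library, per the file headers. Per the submitters' processing notes, FastQC, MultiQC and STAR were used on mm10, with no versions stated. Overlapping genes may share reads, since the counter, its strand setting and its annotation are not stated. Columns were matched to libraries by arm and replicate number.

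Genes were kept with filterByExpr (minimum count 10, minimum total 15), which left 16766. TMM scaling was followed by tests in edgeR 4.0.16 (R 4.3.3), as robust quasi-likelihood fits over 9 libraries, with group as the only term. P-values were adjusted by Benjamini-Hochberg over all tested genes, and a gene was called under 0.05. The standard error was the log2 change divided by the root of F. Positions and lengths came from GENCODE on GRCm38, which held 96.9% of the tested genes. The procedure was tested on simulated data. Named genes were the members, up to 4 called genes per list and comparison with the smallest adjusted p, the 3 genes nearest to each member in pattern, Eya3, Ikbkb, markers, and chemokine neighbours; Adam10, Timp3, Hif1a, Ccl25, Pelp1, Psmb6 and genes at or near 0 counts were added after their values were seen. Alternatives changed the scaling, filter, test, samples fitted and replicate block, and left out each library. Replicates of a group differed by more than sampling noise.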

Additional observations from a re-analysis of the deposited data

How the results depend on the processing

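The 9 results for Cxcl10, Cxcl12 and Cx3cl1 kept their direction and their call in each of the 17 alternatives run for each. The largest adjusted p was 0.0195 (edgeR), for Cxcl12 in add-back against knockdown without add-back replicate 3, followed by 0.0126 and 0.012 for Cx3cl1 and Cxcl10 in that comparison without knockdown replicate 2. Over the other named genes, 2792 of 2878 alternative values kept their call, 59 lost it, 27 gained one and 0 reversed. Labels give each group replicates 1 to 3. The deviations of same-numbered libraries correlated at -0.0111 to 0.123, and those of differently numbered ones at -0.0814 to 0.0464. The highest, 0.123, was between the first add-back and the first knockdown library. The numbers were not taken as pairs in the main fit. With the replicate block, genes called came to 10232 in knockdown against scramble, 2678 in add-back against knockdown, where 1749 were called without it, and 9997 in add-back against scramble. Leaving out 1 library gave 8799 to 9898, 1168 to 1800 and 8500 to 9511 calls in the same order. Cxcl16 had too few reads for a test except without the low-count filter, where it was not called (adjusted p = 0.748 and 0.555 for add-back against knockdown and against scramble, edgeR). Only 3 libraries a group and no protein or cell counts limit these values.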

Other observations

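Of 8 receptor and scavenger genes below the level of a test, Cxcr4, Cxcr6 and Ackr1 had no read in any library and Gpr182 had 1, in a scramble library. Cxcr3, the receptor of CXCL10, had 8, 5 and 5 counts in add-back libraries, 4, 5 and 0 in knockdown libraries and 0 in the 3 scramble libraries. Ackr4, a scavenger of CCL19, CCL21 and CCL25, had 15, 19 and 8 counts in add-back libraries, 2, 9 and 2 in knockdown libraries and 0 in scramble libraries. Ackr2, a scavenger of inflammatory CC chemokines, had 5, 10 and 21 counts in add-back libraries, 0, 0 and 1 in knockdown libraries and 0, 3 and 0 in scramble libraries. Cxcr3, Ackr4 and Ackr2 were chosen after their values were seen, and no test was made of them.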
